A study of Mus musculus with 24 samples.

Results

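Ribosomal protein genes encode the protein parts of the cytosolic ribosome, with the Rpl genes belonging to the large subunit and the Rps genes to the small one. Their mRNAs are among the most abundant in a dividing or biosynthetically active cell, and most begin with a pyrimidine-rich tract (5′ terminal oligopyrimidine, TOP) through which mTOR signaling controls how strongly they are translated. In T cells, ribosome production rises soon after antigen recognition, and naive T cells are known for a high share of ribosomal protein mRNA within a small transcriptome. The genes described here were taken by symbol: every mouse gene named Rpl or Rps, with or without a p, followed by a number and at most 1 letter and 1 further digit. The pattern found 82 of the 32285 genes in the count matrix, 51 of the large subunit and 31 of the small, and no symbol occurred more than once. The pattern uses no measured value. A list of 5 ribosomal proteins or ribosome-bound factors outside the pattern, Rpsa, Rack1 and Rpl36al among them, was counted separately.

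The cells came from subcutaneous Panc02 tumors, a pancreatic cancer line of the mouse, in wild-type male C57BL/6 mice aged 6 to 7 weeks at implantation. By the sample labels each mouse received 3000000 Panc02 cells and its tumor was taken on day 38, whereas a legend in the study gives fewer cells and partly other days. The 8 treatments were isotype control antibodies, anti–PD-1, anti–CTLA-4 and both antibodies, each without or with PancVAX, a vaccine of neoantigen peptides given on days 12 and 19. Anti–PD-1 was given repeatedly from day 12, and anti–CTLA-4 on days 15 and 22. The study's methods name AddaVax and the STING agonist ADU V16 in the vaccine and PBS in its place, so that an effect of PancVAX is one of peptides and adjuvants together. The mice without a checkpoint antibody received isotype antibodies, also beside PancVAX. Each treatment had 1 library of dissociated whole tumor and 1 enriched for immune cells by Percoll density separation, sequenced in 2 batches, so that preparation and sequencing batch cannot be told apart. Tumors of a treatment were pooled, and both libraries of a treatment may hold cells of the same mice, so that the P values below measure the spread between pools or libraries and not between mice. A pool here is the sum of both libraries of a treatment.

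The 16 libraries held 5743–11979 barcodes and 77132398–176233225 unique molecular identifiers (UMIs) each. The limits used by the study (1000–10000 UMIs, 200–3000 genes, under 10% mitochondrial UMIs, no hemoglobin) left 57357 cells of 144994 barcodes, 1793–7413 per library, with 7325594–29666753 UMIs per library. Without the upper limits 120419 barcodes would have stayed, so that the deepest cells are not described unless stated. Cells were sorted into lineage gates by 6 marker genes per lineage, none of them a ribosomal protein gene. In the CD8+ T cell gate of 9519 cells, 97.1% had a UMI of Cd3e, 12.2% of the macrophage gene C1qb and 8.36% of the tumor keratin Krt18. These genes, and those named below for the fibroblast gate, are among the markers that set the gates. Their percentages are thus partly fixed by the gating and are no independent check of it. No doublet caller was used beyond the rule that a cell lead by 2 markers. Of the cells, 21.9–53.6% per library fell in no gate, with the highest share in the Percoll library of PancVAX + anti–PD-1 and the next at 38.9%. Pairs of libraries shared 5–45 barcodes, at most 1.26% of the smaller library.

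Sequences around the transcription start are shown first, since most of these genes are known for a TOP tract, although they were chosen here by symbol. RefSeq start sites on GRCm38.p6 were at hand for 62 of the 82 genes, with 74 starts. From 15 bases before to 15 bases after the start, 32 of the 74 starts (43.2%) overlapped a run of at least 8 pyrimidines (C or T), compared with 5788 of 32851 starts of all genes (17.6%). In the longer window of 250 bases before to 50 after, the letters CCGGAAG, a core bound by ETS family factors, were found on either strand at 26 member starts (35.1%) and at 2910 of all starts (8.86%). These counts are descriptions, since genes with several starts enter several times and annotated starts may lie some bases away from the first base of the mRNA. The 6 windows below, written 5′ to 3′ along the gene with the longest pyrimidine run in capitals, belong to 3 genes that were lower and 3 that were not called with PancVAX in CD8+ T cells, and were picked among the starts that hold a run.
Rps15a, chr7:118116133-118116162, minus strand: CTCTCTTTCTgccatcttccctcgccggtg
Rpl28, chr7:4792950-4792979, plus strand: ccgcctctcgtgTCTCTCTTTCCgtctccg
Rps26, chr10:128626492-128626521, minus strand: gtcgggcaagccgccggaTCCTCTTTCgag
Rps27, chr3:90213634-90213663, minus strand: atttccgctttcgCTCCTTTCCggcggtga
Rpl38, chr11:114668565-114668594, plus strand: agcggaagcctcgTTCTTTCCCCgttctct
Rps24, chr14:24490663-24490692, plus strand: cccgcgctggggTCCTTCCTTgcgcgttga
In the Rps15a window the run in capitals lies before the annotated start. A shorter run of 9 pyrimidines in the same window, left in lower case, lies across that start. A second annotated start of Rps24 held no such run. Of the 63 members lower with PancVAX in CD8+ T cells, 48 had a start site and 25 of these a run, and of the 17 members not called, 12 had a start site and 6 a run.

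Lymphocytes devoted the largest share of their UMIs to ribosomal protein genes and neutrophils the smallest. Over the 16 libraries, the share in the CD8+ T cell gate was 26.6% in the lowest, 29.1% in the median and 34.3% in the highest library. In the B cell gate it was 27.3%, 30.9% and 33.1%, and in the macrophage gate 14.6%, 16.8% and 18.6%. Every CD8+ value thus exceeded every macrophage value, and within each of the 16 libraries CD8+ T cells lay above macrophages, by 12.96 ± 1.74 percentage points (SD, n = 16). B cells exceeded CD8+ T cells in 11 of the 16 libraries, by 0.901 ± 1.78 points. This split by treatment, with B cells higher in 4 of 8 libraries without PancVAX, at -0.317 ± 0.946 points, and in 7 of 8 with PancVAX, at 2.12 ± 1.58 points. Between these and the myeloid cells lay NK cells (23.0%, 25.9% and 30.5%), CD4+ T cells (23.2%, 25.1% and 28.3%) and tumor cells (17.9%, 21.1% and 24.7%). CD4+ T cells were below CD8+ T cells in 16 of 16 libraries, by 4.42 ± 1.74 points.

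Dendritic cells (10 libraries with enough cells) had 16.2%, 19.1% and 22.0%, fibroblasts (15 libraries) 13.4%, 19.4% and 21.1%, and endothelial cells (12 libraries) 12.3%, 15.8% and 18.8%. The ranges of these 3 gates overlapped with one another and with macrophages. In the fibroblast gate of 530 cells, 90.6% had a UMI of Dcn and 49.8% of Col1a1, but also 48.7% of Krt18 and 33.4% of Krt8, against 11.0% and 8.23% in macrophages, and the part of tumor cell RNA in its share was not tested. Tumor cells were above macrophages in 16 of 16 libraries, by 4.76 ± 1.13 points. Neutrophils had 5.83%, 7.52% and 10.1% and were below macrophages in 16 of 16 libraries, by 9.25 ± 0.973 points. With cells above the upper limits added, the neutrophil share of the pools without PancVAX rose from 7.08–8.79% to 12.6–16.0%. Their median was 1503 UMIs per cell, where the lower limit was 1000. Shares among cells of 2000–6000 UMIs were summed over all libraries and thus mix treatments. They were 8.40% in neutrophils, 16.8% in macrophages, 20.4% in tumor cells, 25.6% in CD4+ T cells, 29.5% in CD8+ T cells and 31.5% in B cells. At the same depth dendritic cells had 19.1%, fibroblasts 16.9% and endothelial cells 14.1%. By pool, B cells and CD8+ T cells overlapped without PancVAX (30.4–32.5% and 31.7–32.6%) and not with it (28.5–32.1% and 27.6–28.3%). Depth can still differ between gates within 2000–6000 UMIs. A share cannot tell fewer ribosomal protein UMIs from more UMIs of other genes.

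Within the CD8+ gate, the naive or memory state (495 cells, set by 6 markers, Ccr7, Lef1, Tcf7, S1pr1 and Dapl1 among them) had a share of 36.3%, 40.5% and 43.7% in the lowest, median and highest library. The exhausted state (2293 cells, set by Pdcd1, Havcr2, Lag3, Tigit, Entpd1 and Tox) had 27.1%, 29.7% and 33.0%. Naive or memory cells were above exhausted cells in 16 of 16 libraries, by 9.91 ± 1.58 points, and their ranges did not overlap. Effector cells (4293) had 26.1%, 28.8% and 35.3% and were above exhausted cells in 7 of 16 libraries, at -0.489 ± 1.70 points. Without PancVAX they were above in 6 of 8 libraries, at 0.538 ± 1.19 points, and with PancVAX in 1 of 8, at -1.52 ± 1.54 points. Cycling cells (1082) had the lowest share of the states, at 22.3%, 25.2% and 29.9%, and were below exhausted cells in 16 of 16 libraries, by 4.70 ± 1.38 points. Among cells of 2000–6000 UMIs, summed over all libraries, the shares were 41.3% in naive or memory, 30.2% in exhausted, 28.3% in effector and 24.5% in cycling cells. These sums mix treatments, and the states differed in that mix. By pool at this depth, effector cells had 30.7–32.6% and exhausted cells 30.4–31.8% without PancVAX. With PancVAX they had 26.5–28.9% and 27.1–29.6%, so that effector and exhausted cells overlapped with and without it.

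**Figure D1:**
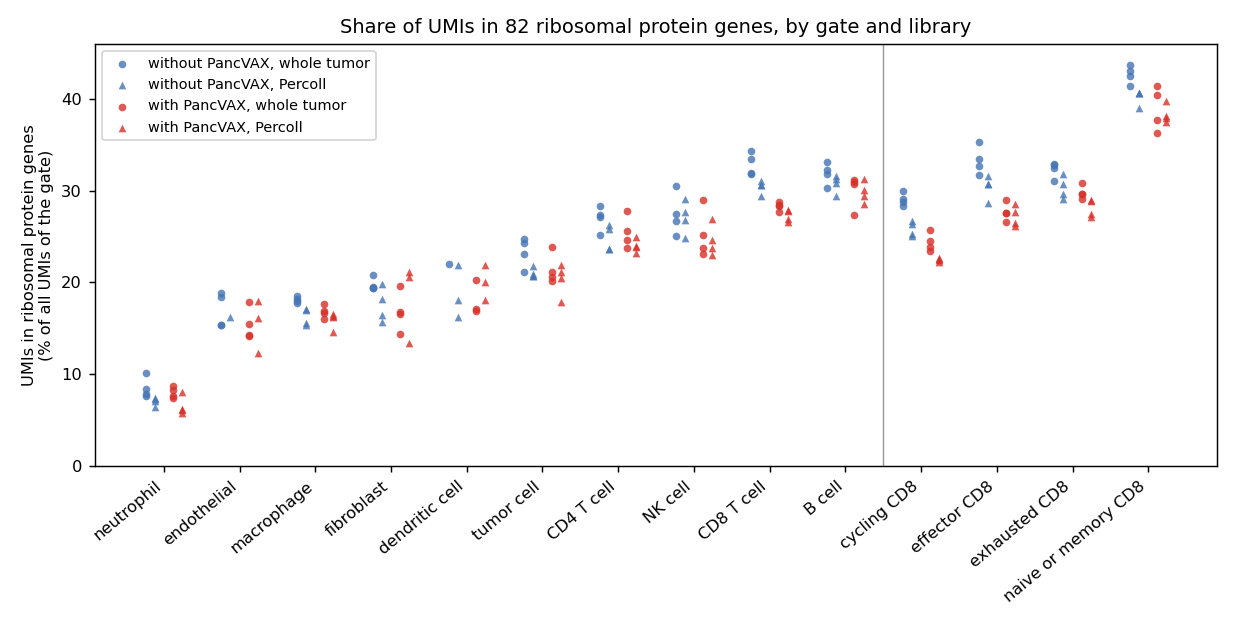
Share of all UMIs of a gate that fell in the 82 ribosomal protein genes (%, vertical axis) for each lineage gate and CD8 state (horizontal axis), 1 point per library, circles for whole tumor and triangles for Percoll, blue without and red with PancVAX. Neutrophil libraries lie at 5.83–10.1%, macrophage libraries at 14.6–18.6%, CD8 T cell libraries at 26.6–34.3% and naive or memory CD8 libraries at 36.3–43.7%, and in the CD8 gate every library with PancVAX lies below every library without.

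Single genes were compared between gates with edgeR's quasi-likelihood test on UMIs summed by library and gate, with the library as a block, and called at a Benjamini-Hochberg adjusted P under 0.05 over all genes tested. CD8+ T cells against macrophages gave 73 members higher and 7 lower of 80 tested, with 42.8% of all 11765 genes called higher and 41.5% called lower. The median log2 fold change was 0.68 over the members and 0.03 over all genes. Levels are given as CPM, the UMIs of a gene per 1000000 UMIs of the same sum. Rps15a, a protein of the small subunit body, stood farthest out. Its level was 6173, 8120 and 10440 CPM in the lowest, median and highest CD8+ library and 1883, 2417 and 2771 in the macrophage libraries, with no overlap, and its log2 fold change was 1.67 ± 0.04 (SE, n = 16 libraries, edgeR, adjusted P = 2.6e-20). Rpl13a, Rps27 and Rps7 had log2 fold changes of 1.26, 1.25 and 1.09. Rplp0, the scaffold of the ribosomal stalk, was higher by 0.95, Rps6, the substrate of S6 kinase, by 0.55, and Rps20 by 0.47 on the log2 scale.

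The 7 members lower in CD8+ T cells than in macrophages included Rps27l and Rpl7l1, which are paralogs of Rps27 and Rpl7. Rps27l, known as a p53 target, had 101, 165 and 218 CPM in the CD8+ libraries and 268, 348 and 386 in the macrophage libraries, again without overlap, with a log2 fold change of -1.20 ± 0.06 (SE, edgeR, adjusted P = 1.7e-14). Rpl7l1 fell by 0.69 on the log2 scale, Rps29 by 0.31 and Rpl10 by 0.21. Thus Rps27 and its paralog Rps27l moved in opposite directions between these gates.

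Tumor cells against macrophages split the family, with 18 members higher and 49 lower of 79 tested, where 38.5% of 11995 genes were called higher and 42.0% lower. The member median was -0.16 against -0.05 over all genes. Rps6 was the most elevated, at 3765, 4847 and 6215 CPM in the tumor cell libraries and 1064, 1201 and 1633 in the macrophage libraries, without overlap and with a log2 fold change of 1.53 ± 0.06 (SE, edgeR, adjusted P = 7.3e-18). Rps2 (0.69), Rps3a1 (0.65) and Rpl8 (0.61) were also higher. Rpl35a, Rps29, Rpl39 and Rps25 were lower, at -1.26, -1.19, -1.04 and -1.02 on the log2 scale. The scaling here was by trimmed means (TMM). With plain library totals the split turned to 57 higher and 10 lower, as the median of all genes moved to 0.42 and that of the members to 0.31, and with the deeper cells added it was 46 higher and 21 lower. The share of UMIs, which uses library totals, was higher in tumor cells.

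Neutrophils against macrophages gave 77 members lower of 80 tested, where 40.8% of 10688 genes were called lower and 35.7% higher, and the member median was -1.10 against -0.09 over all genes. Rps4x, the X-linked form of a small-subunit protein, had 374, 588 and 832 CPM in the neutrophil libraries and 2647, 2950 and 3643 in the macrophage libraries, and its log2 fold change was -2.22 ± 0.07 (SE, edgeR, adjusted P = 1.0e-22). Rpl10a (-1.78), Rps20 (-1.76), Rpl3 (-1.74) and Rpl36a (-1.72) were next. Of the paralogs, Rpl22l1 was lower, at -1.65 and Rps27l by -0.22, while Rpl7l1 did not pass the test (0.12, edgeR, adjusted P = 0.15). Rps27 was called higher (0.12), which became -0.13 in cells of 2000–6000 UMIs. The fit also called Rpl3l, but this gene passed the filter on low counts only through the neutrophil sums, so that its test is not used and its levels are given as a description.

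Rpl3l, a paralog of Rpl3 known from heart and skeletal muscle, was sparse everywhere and had its highest median level in neutrophils. It had 4–14 UMIs in every one of the 16 neutrophil libraries, or 5.37–18.9 CPM with a median of 10.5. In macrophages 9 of 16 libraries had a UMI, with at most 9 UMIs and 1.66 CPM. The neutrophil and macrophage libraries did not overlap, a description that rests on few UMIs. In dendritic cells 2 of 16 libraries had 1 UMI, which reached at most 26.1 CPM, above every neutrophil library. Over all cells 285 UMIs of Rpl3l were counted in 244 cells. Reads shared with near-identical copies or pseudogenes cannot be told apart from true expression of such genes in these counts. Rpl10l, the testis-expressed copy of Rpl10, had 0 UMIs in all 144994 barcodes.

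B cells against CD8+ T cells gave no common direction, with 16 members higher and 23 lower of 79 tested, where 25.9% of 10368 genes were called higher and 31.9% lower, and with a member median of -0.03 against -0.05 over all genes. Rps27 had 3357, 4409 and 6408 CPM in the B cell libraries and 1898, 2825 and 3762 in the CD8+ libraries, with overlapping ranges, and its log2 fold change was 0.66 ± 0.07 (SE, edgeR, adjusted P = 3.3e-11). Rps29, Rps20 and Rps19 were higher by 0.54, 0.43 and 0.42, and Rps27l, Rpl7a, Rplp0 and Rpl27 lower, at -1.06, -0.53, -0.53 and -0.50. The split turned toward higher under DESeq2 (32 higher, 21 lower), library totals (31 and 23), cells of 2000–6000 UMIs (27 and 13) and a fit without the library block (19 and 11). The shares of all genes called higher and lower in these fits are not given, so that a turn of the members cannot be told from a shift of all genes.

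Among CD8 states, naive or memory against exhausted cells showed the most uniform difference. Here 77 members were higher and 1 lower of 79 tested, where 20.1% of 5550 genes were called higher and 21.6% lower, and the member median was 0.60 against -0.01 over all genes. Rps19, mutated in Diamond-Blackfan anemia, had 5320, 6309 and 7275 CPM in the naive or memory libraries and 2868, 3325 and 3942 in the exhausted libraries, without overlap, and its log2 fold change was 1.08 ± 0.04 (SE, edgeR, adjusted P = 2.4e-26). Rps29 (1.02), Rps20 (0.96), Rps27 (0.92) and the stalk protein Rplp1 (0.90) followed. Rps15a, the member that most separated CD8+ T cells from macrophages, differed by only 0.12 (edgeR, adjusted P = 0.0061). Rps27l was the only member called lower, at 45.2, 97.1 and 206 CPM against 130, 170 and 252 in exhausted cells, with overlapping ranges and a log2 fold change of -0.50 ± 0.12 (SE, edgeR, adjusted P = 0.00040).

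Other genes of the translation machinery are set against the 20.1% of all genes called higher and 21.6% called lower between naive or memory and exhausted cells, and the median of -0.01. All 5 ribosomal proteins outside the name pattern were higher, as were 8 of 15 translation factors and other TOP mRNAs and 21 of 28 tested ribosome biogenesis genes, with 0 lower in each of these lists. Their median log2 fold changes were 0.36, 0.16 and 0.59. Nop2, Gnl3, Wdr12, Dkc1 and Fbl, which act in nucleolar processing and modification of ribosomal RNA, were higher by 1.09, 1.08, 1.05, 0.98 and 0.97 on the log2 scale. Of 6 tested regulators, Larp1, the repressor of TOP mRNA translation, and Myc were higher (0.79 and 0.70) and none was lower, on a list too short to set against that share. Mitochondrial ribosomal proteins, which build a separate ribosome, had 4 higher and 10 lower of 71, with a median of 0.01. With library totals the median of all genes moved to -0.24 and that of the members to 0.39, and 73 members were higher and 3 lower.

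Effector against exhausted cells gave small differences both ways, with 19 members higher and 11 lower of 79 tested and 14.8% of 7913 genes called higher as well as 14.8% called lower. The member median was 0.00. Rps27 (0.26), Rps24 (0.20), Rpl38 (0.19), Rpl19 (0.18) and Rps19 (0.16) were higher and Rps27l (-0.37), Rps15a (-0.31), Rps26 (-0.31) and Rpl28 (-0.21) lower in effector cells (edgeR, adjusted P from 1.6e-07 to 0.0012). Of the translation factors and other TOP mRNAs 1 was higher and 10 were lower of 15, with a median of -0.16. The split became 14 higher and 25 lower with library totals and 3 higher and 4 lower without the library block, where the shares of all genes called are not given.

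Cycling against exhausted cells gave 73 members lower and 1 higher of 79 tested, where 20.6% of 7171 genes were called lower and 20.3% higher, with a member median of -0.34 against -0.04 over all genes. Rps15a had 4838, 5890 and 8298 CPM in the cycling libraries and 7965, 9848 and 11354 in the exhausted ones, with slight overlap, and a log2 fold change of -0.77 ± 0.03 (SE, edgeR, adjusted P = 3.4e-18). Rps27 (-0.61), Rpl30 (-0.55), Rpl39 and Rpl27a (each -0.54) were also lower. Rps27l was the 1 member called higher, at 125, 230 and 389 against 130, 170 and 252 CPM (0.33 ± 0.06 SE, edgeR, adjusted P = 2.2e-05). Translation factors and other TOP mRNAs followed the ribosomal proteins, with 12 lower and 1 higher of 15 and a median of -0.41. Ribosome biogenesis genes, in contrast, had 9 higher and 1 lower of 28 (median 0.14). Mitochondrial ribosomal proteins had 21 higher and 8 lower of 76 (median 0.09). Rps27l thus ran against the family in naive or memory and in cycling cells, each against exhausted cells, and in CD8+ T cells against macrophages, but not in neutrophils against macrophages.

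The treatments were then compared over pools. In the CD8+ T cell gate the share of UMIs in ribosomal protein genes was 30.9% with isotype antibodies, 32.1% with anti–PD-1, 31.7% with anti–CTLA-4 and 31.4% with both. With PancVAX it was 27.6% alone, 28.1% with anti–PD-1, 27.8% with anti–CTLA-4 and 27.8% with both. All 4 pools with PancVAX were below all 4 without, at means of 27.8% ± 0.213 and 31.5% ± 0.518 (SD, n = 4 pools each), a difference of -3.69 percentage points. The difference was -4.57 points among whole tumor and -3.13 points among Percoll libraries, and the groups did not overlap in either preparation. Without the pool of PancVAX + anti–PD-1 it was -3.78 points. Both subunits showed the order, at 17.3–17.9% without and 15.6–15.9% with PancVAX for the large and 13.6–14.2% and 11.9–12.2% for the small subunit.

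The same order appeared in 3 of the 4 CD8 states. In effector cells the share was 30.5–33.2% in the pools without and 26.6–28.8% in those with PancVAX, in exhausted cells 30.1–32.1% and 28.1–29.8%, and in cycling cells 27.0–27.9% and 22.8–24.6%, with no overlap in each. In naive or memory cells it was 39.9–42.3% and 37.0–40.8%, with overlap. Outside the CD8+ gate the pools overlapped in every gate, at mean differences of -1.30 points in CD4+ T cells, -2.26 in NK cells, -1.27 in B cells, -0.851 in macrophages, -0.474 in neutrophils, -1.12 in tumor cells, -1.45 in fibroblasts and -1.52 in endothelial cells. The sign was thus negative over the pools of every gate with 4 pools a side, although in fibroblasts it was positive among Percoll libraries (0.881 points, 3 libraries with and 4 without PancVAX) and negative among whole tumor libraries (-2.94 points). The overlap in macrophages was slight, from 17.02% in the lowest pool without to 17.09% in the highest with PancVAX, and macrophages separated among whole tumor libraries, as the median over cells and without mitochondrial UMIs (17.74–18.58% without and 16.62–17.68% with PancVAX). Naive or memory cells separated among whole tumor libraries, and fibroblasts with looser gates and without mitochondrial UMIs. With cells above the upper limits added, neutrophils (12.6–16.0% and 9.99–11.1%), tumor cells (24.6–25.4% and 22.6–24.5%) and fibroblasts (20.8–21.6% and 19.4–20.2%) separated as well.

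Other features of the CD8+ cells moved with PancVAX. Effector cells made up 14.5–20.7% of CD8+ cells in the pools without and 57.4–63.4% in those with PancVAX, and exhausted cells 37.0–43.7% and 11.1–18.4%. Naive or memory cells made up 3.62–13.2% and 1.73–5.16%, and cycling cells 11.1–15.6% and 9.60–11.2%. Cells assigned to no state were 17.5–22.1% and 9.72–11.5%. The median depth was 4311–5094 UMIs per cell without and 3464–3648.5 with PancVAX, and the mitochondrial share 2.35–3.20% and 1.91–2.45%. The summed level of the markers of the 8 other lineages, 6 each, was 182–268 and 220–345 CPM. Within 4 bins of UMIs per cell, in which depth can still differ, the pools did not overlap, as in cells of 2000–4000 UMIs, where the share was 30.2–31.8% without and 26.2–27.3% with PancVAX, or in cells of 6000–10000 UMIs, where it was 30.0–32.3% and 28.3–29.1%. With cells above the upper limits added, the difference of the means shrank to -2.25 points. With mitochondrial UMIs left out it was -3.99 points. The part of the mix of states and of RNA from other cells in the result was not tested.

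A CD8+ cell held 1469–1687 ribosomal protein UMIs on average in the pools without PancVAX and 1101–1134 in those with it, and 3168–3700 and 2862–2930 UMIs of other genes, with no overlap in either quantity. In exhausted cells the ribosomal protein UMIs per cell overlapped (1469–1709 and 1449–1731), and so did the others (3197–3962 and 3557–4084). In effector cells both were lower with PancVAX, at 896–1029 against 1339–1529 ribosomal protein UMIs and 2434–2548 against 2842–3156 others. Cycling cells also had less of both with PancVAX, at 1307–1437 against 1761–1864 ribosomal protein UMIs and 4306–4422 against 4631–4901 others. In naive or memory cells both overlapped.

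**Figure D2:**
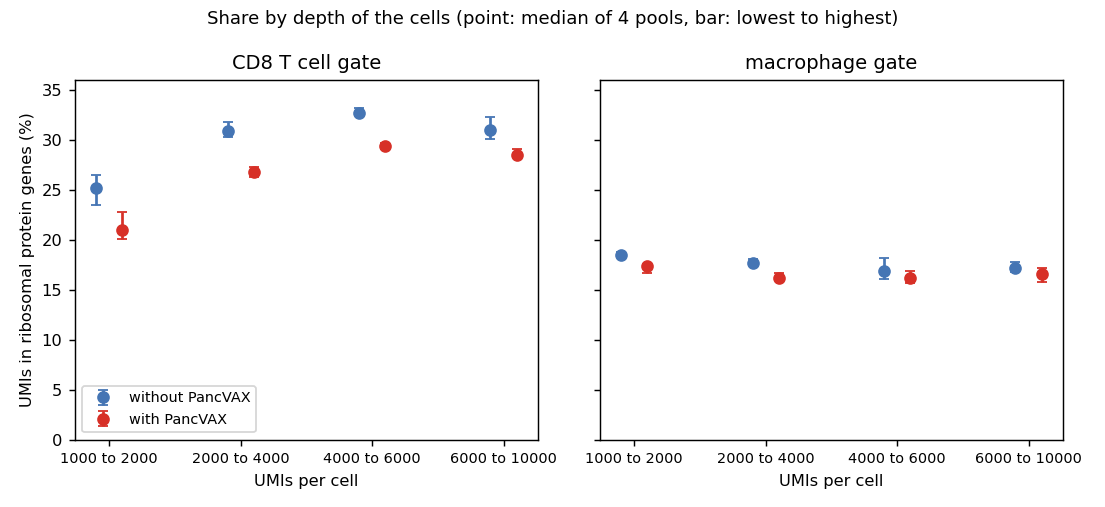
Share of UMIs in ribosomal protein genes (%, vertical axis) in CD8 T cells and macrophages grouped by UMIs per cell (horizontal axis), blue without and red with PancVAX, each point the median and each bar the range of 4 pools. In CD8 T cells the bars do not meet in any of the 4 bins, as at 30.2–31.8% and 26.2–27.3% for 2000 to 4000 UMIs, and in macrophages they meet in the 2 upper bins.

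Fitted gene by gene over all 8 pools with the 2 antibodies as further terms, the PancVAX effect in the CD8+ gate gave 63 members lower and 0 higher of 80 tested, where 11.1% of 10861 genes were called lower. The member median was -0.26 against 0.01 over all genes. Of the large-subunit members 37 of 49 and of the small-subunit members 26 of 31 were lower. All 4 PancVAX pools lay below all 4 others for 52 of the 80 members, against 8.92% of all genes tested, and above them for 0, against 17.4% of all genes. Rpl3l and Rpl10l did not pass the filter on low counts. Without the pool of PancVAX + anti–PD-1, 56 members were called.

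Rps20, a protein of the small-subunit head, was 6878 CPM with isotype antibodies, 7324 with anti–PD-1, 7197 with anti–CTLA-4 and 6981 with both, and with PancVAX 5210, 5460, 5359 and 5382 in the same order. The groups did not overlap, and its log2 fold change was -0.48 ± 0.04 (SE, n = 4 pools each, edgeR, adjusted P = 1.9e-05).

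Rps15a was 9085, 9620, 9396 and 9930 CPM without and 7370, 7167, 7072 and 7516 with PancVAX, and its log2 fold change was -0.45 ± 0.04 (SE, edgeR, adjusted P = 3.1e-05). Rps12 (-0.45), Rps26 (-0.45) and Rpl28 (-0.44) were lower by similar amounts. Rpl28, of the large subunit, was at 3704, 3623, 3630 and 3610 CPM without and 2831, 2797, 2820 and 2798 with PancVAX. Neither Rps15a nor Rpl28 overlapped between the groups.

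The genes of the stalk and of the catalytic center named here were lower, and differences between them were not tested. Rplp0 was 5690, 5766, 5636 and 5638 CPM without and 5096, 5420, 5370 and 5562 with PancVAX, close together but not overlapping, with a log2 fold change of -0.16 ± 0.04 (SE, edgeR, adjusted P = 0.018). The other stalk proteins Rplp1 and Rplp2 were lower, at -0.31 and -0.23. Rpl3, which reaches into the peptidyl transferase center, was 3523, 3544, 3561 and 3414 without and 2770, 2994, 2906 and 3022 CPM with PancVAX (-0.34 ± 0.05 SE, edgeR, adjusted P = 0.00033), and Rpl10, a late-joining protein next to that center, was lower, at -0.35. Rpl5 and Rpl11, the partners of 5S ribosomal RNA that can bind Mdm2, were lower, at -0.30 and -0.28, and Rps6 by -0.26 (edgeR, adjusted P = 0.0044).

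Of the paralogs, Rps27l was 198, 171, 172 and 185 CPM without and 158, 145, 132 and 143 with PancVAX, a log2 fold change of -0.40 ± 0.07 (SE, edgeR, adjusted P = 0.0020). Rpl22, needed for development of αβ T cells, and its paralog Rpl22l1 were both lower, at -0.33 and -0.18. Rpl7 was lower, at -0.23, while Rpl7l1 (0.01 ± 0.09 SE, edgeR, adjusted P = 0.95) was not called. Rpl39l had 68 UMIs in the whole CD8+ gate, at 6.12 CPM in the isotype control pool and 0–2.37 in the other 7, and its log2 fold change of 0.27 ± 0.65 (SE, edgeR, adjusted P = 0.81) was not called.

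The 17 members that were not called were Rpl7l1, Rpl8, Rpl14, Rpl19, Rpl21, Rpl29, Rpl36, Rpl37, Rpl37a, Rpl38, Rpl39, Rpl39l, Rps21, Rps24, Rps27, Rps28 and Rps29. Rps27 was 2731, 2819, 2134 and 2930 CPM without and 3538, 3106, 2618 and 2923 with PancVAX, which overlap, with a log2 fold change of 0.13 ± 0.08 (SE, edgeR, adjusted P = 0.30). Rpl38, known for selective effects on translation in development, was 2275, 2196, 1673 and 2650 without and 2923, 2380, 2025 and 2384 with PancVAX (0.08 ± 0.12 SE, edgeR, adjusted P = 0.70). In both genes the anti–CTLA-4 pools were the lowest of their group, and the groups overlapped.

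**Figure D3:**
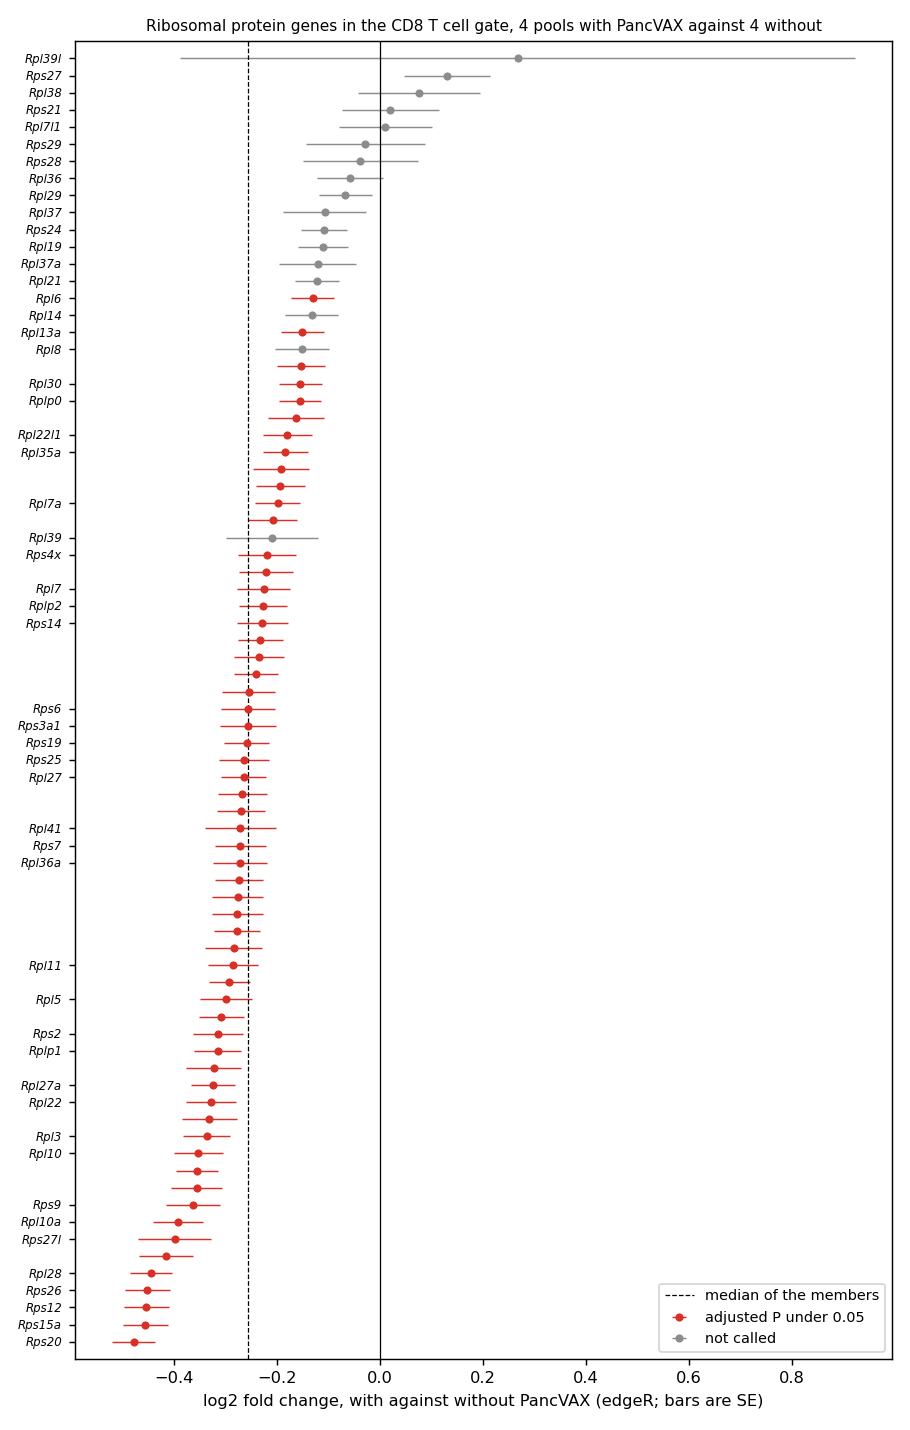
Log2 fold change with against without PancVAX in the CD8 T cell gate (horizontal axis) for 76 ribosomal protein genes (rows, named where the text describes them), with SE bars, 4 pools a side, red where the adjusted P was under 0.05 and grey where it was not, and the median of -0.26 over all 80 members tested as a dashed line. The 59 red genes all lie below 0, from Rps20 at -0.48 to Rpl6 at -0.13, and 5 grey genes lie above 0. The other 4 of the 80 members, all called lower and 1 of them below Rps20, are not drawn.

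**Figure D4:**
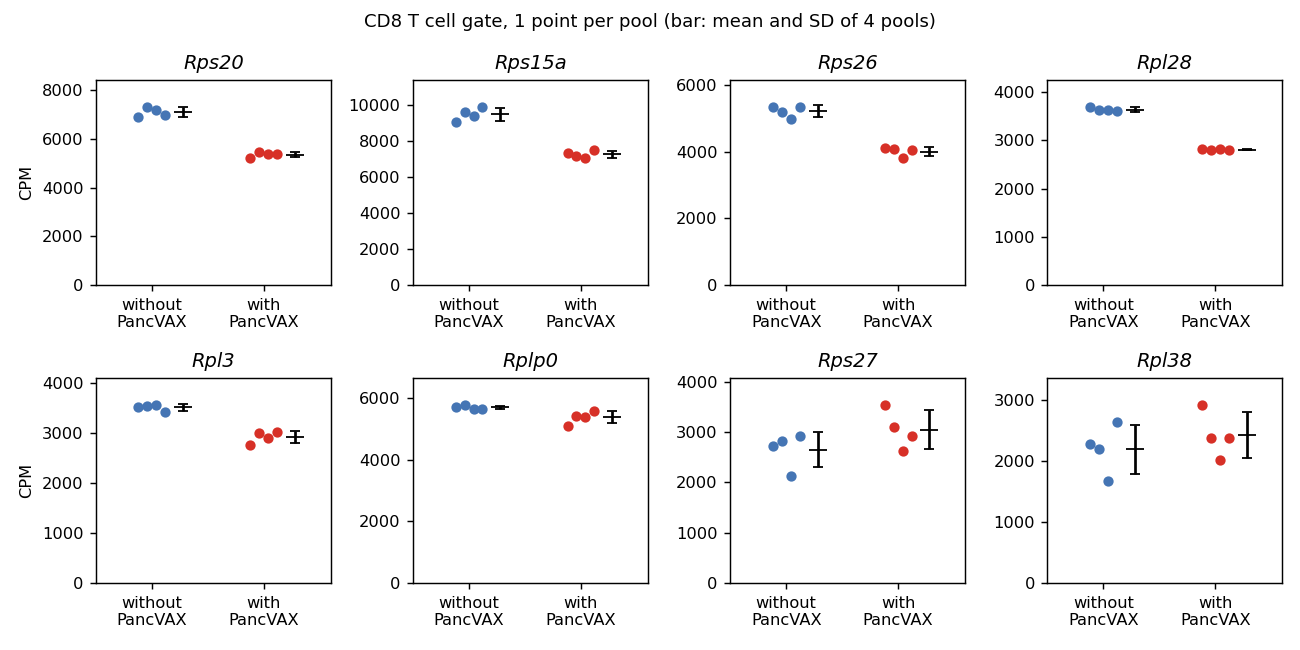
Level in CPM (vertical axes, from 0) of 8 ribosomal protein genes in the CD8 T cell gate, 1 point per pool, blue without and red with PancVAX, with the mean and SD of 4 pools. Rps20, Rps15a, Rps26, Rpl28, Rpl3 and Rplp0 do not overlap between the groups, as for Rpl28 at 3610–3704 and 2797–2831, and Rps27 and Rpl38 do.

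Genes around the family are set against the 11.1% of all genes called lower and the median of 0.01 over all genes. Of the 5 ribosomal proteins outside the pattern, 4 were lower with PancVAX in CD8+ T cells, among them Rack1 (-0.25), Rpsa (-0.24) and Rpl36al (-0.22), with a list median of -0.24. Of 15 translation factors and other TOP mRNAs, with a median of -0.19, 10 were lower and none higher. Among the lower ones were Eef1b2 (-0.38), Naca (-0.34), Eef1g (-0.32), Eif3e (-0.31) and Btf3 (-0.27). Of 30 ribosome biogenesis genes, with a median of -0.08, 5 were lower, a share near that of all genes, with Nhp2 at -0.31 and the nucleolar histone chaperone Npm1 at -0.27, and 0 were higher. None of 11 tested regulators was called. Of 78 mitochondrial ribosomal proteins, with a median of -0.17, 25 were lower and 0 higher, with Mrpl34 (-0.62), Mrpl54 (-0.54) and Mrpl17 (-0.49) in front, so that lower levels were not limited to the cytosolic ribosome.

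PancVAX alone against isotype control, with 2 libraries of each, was read from a fit over all 16 libraries with treatment and preparation as terms, so that the 8 treatments shared 1 estimate of the spread on 7 residual degrees of freedom. It gave 22 members lower and 0 higher of 80, where 3.95% of 10087 genes were called lower. Among the lowest were Rpl10a (-0.43, adjusted P = 0.00052), Rps20 (-0.41), Rpl28 (-0.40) and Rpl3 (-0.39, edgeR). This comparison shares its libraries with the one over all pools. Its count fell to 4–12 when any 1 of the 4 libraries was left out, with 4 without the Percoll library of PancVAX, where 1 library is left on one side and is assumed to vary like the other treatments. It fell to 5 with deeper cells added and to 8 without the preparation term.

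The checkpoint antibodies gave no called member in CD8+ T cells. In the CD8+ gate the share was higher with anti–PD-1 in 3 of 4 pairs of pools, by 0.390 ± 0.649 points, and with anti–CTLA-4 in 2 of 4, by 0.006 ± 0.641 points (SD). Neither antibody gave a called gene among 10861 by edgeR (0.0% of genes). At an unadjusted P under 0.05 there were 473 genes and 2 members for anti–PD-1 and 425 genes and 3 members for anti–CTLA-4, and DESeq2 called 0 members for either. PancVAX with both antibodies against PancVAX alone, from the same kind of fit over 16 libraries, gave 0 members of 80 in CD8+ T cells, where 0.545% of genes were called in either direction (member median 0.01), and 0 of 79 in exhausted cells, where 0.464% were called (member median -0.05). In tumor cells the share was lower with anti–CTLA-4 in 4 of 4 pairs, at -1.46 ± 1.31 points, a mean just above its SD, with pairs from -3.14 to -0.416 points, a value with no test.

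Among CD8 states, cycling cells were not fitted for PancVAX gene by gene. Effector cells gave 51 members lower with PancVAX and 0 higher of 79, where 6.72% of 8968 genes were called lower. The member median was -0.27. Rps20 was 6724, 7537, 7097 and 6769 CPM without and 4418, 5191, 4580 and 4841 with PancVAX, with no overlap and a log2 fold change of -0.63 ± 0.07 (SE, edgeR, adjusted P = 2.2e-06). Rpl28 (-0.57) and Rps26 (-0.55) were also lower, and Rps27 (0.12) and Rpl38 (0.04) were again not called. The count was 33 without the anti–CTLA-4 pool and 31 without the pool of PancVAX with both antibodies.

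In exhausted cells 10 members were lower and 0 higher of 79, where 0.347% of 8649 genes were called lower, and the member median was -0.18. Rps12 was 4248, 4249, 4632 and 4585 CPM without and 4029, 3575, 3604 and 3640 with PancVAX (-0.33 ± 0.07 SE, edgeR, adjusted P = 0.035). Rps9, which shapes decoding accuracy, was 5153, 5321, 5802 and 5287 without and 4453, 4502, 4654 and 4795 with PancVAX (-0.30 ± 0.06 SE, edgeR, adjusted P = 0.018). Neither gene overlapped between the groups. Rps14 and Rps20 (-0.28 and -0.27) were also called. Of the 10 members, 9 were lower too in effector cells of the same pools, where 51 of 79 members were called lower. The count of 10 in exhausted cells was unstable. It was 0 without the pool of anti–PD-1, of anti–CTLA-4 or of any of the 3 PancVAX pools with antibodies. It was 6 without isotype control, 1 without both antibodies, 40 without PancVAX alone, and 0 with deeper cells added. The share of all genes called in these refits is not given, so that their counts of members have no base to be set against.

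Naive or memory cells had 1 member lower of 78 (Rps12, -0.37, edgeR, adjusted P = 0.046), where 0.355% of 3095 genes were called lower, and the member median was -0.18. CD4+ T cells had 1 of 79 (Rps20, -0.35, edgeR, adjusted P = 0.034), where 0.46% of 6082 genes were called lower, and the median was -0.09. Rps20 there was 6019, 6010, 5991 and 4795 CPM without and 4668, 4532, 4505 and 4298 with PancVAX, which did not overlap. The Rps12 call was lost on leaving out any of 6 pools, and the Rps20 call on leaving out any pool but that of both antibodies, where 2 members were called.

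In macrophages (member median -0.15), neutrophils (-0.13) and tumor cells (-0.11) no member passed the edgeR test, where 0.846%, 0.164% and 0.00992% of genes were called in either direction. At an unadjusted P under 0.05 (edgeR) there were 46 of 79 members and 1967 of 11582 genes in macrophages. In neutrophils there were 13 of 80 members and 575 of 7942 genes, and in tumor cells 10 of 79 and 701 of 10085. DESeq2 called 0 members in each of these gates. Without the pool of PancVAX alone, 11 members were lower in macrophages. With cells above the upper limits added, 41 members were called in neutrophils. The share of all genes called in either of these alternative fits is not given here, so that their counts of members have no base to be set against.

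The PancVAX effect was then compared between CD8+ T cells and macrophages of the same pools with an interaction term. It was more negative in CD8+ T cells for 20 of 80 members and less negative for 0, where 5.08% of 12538 genes were called lower, with a member median of -0.10 against 0.00 over all genes. Rps26 differed by -0.34 ± 0.05 (SE, edgeR, adjusted P = 6.0e-05), with 3039, 2977, 3023 and 3157 CPM in macrophages without and 3131, 2905, 2852 and 3003 with PancVAX. In CD8+ T cells the same gene had 5340, 5204, 4973 and 5363 without and 4109, 4085, 3802 and 4049 with PancVAX. Rps20 (-0.30), Rps15a (-0.29) and Rps27l (-0.29) were also called. Only the CD8+ values of Rps26 separated the groups. The count of 20 fell to 3 with cells above the upper limits added and to 9 in cells of 2000–6000 UMIs.

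**Figure D5:**
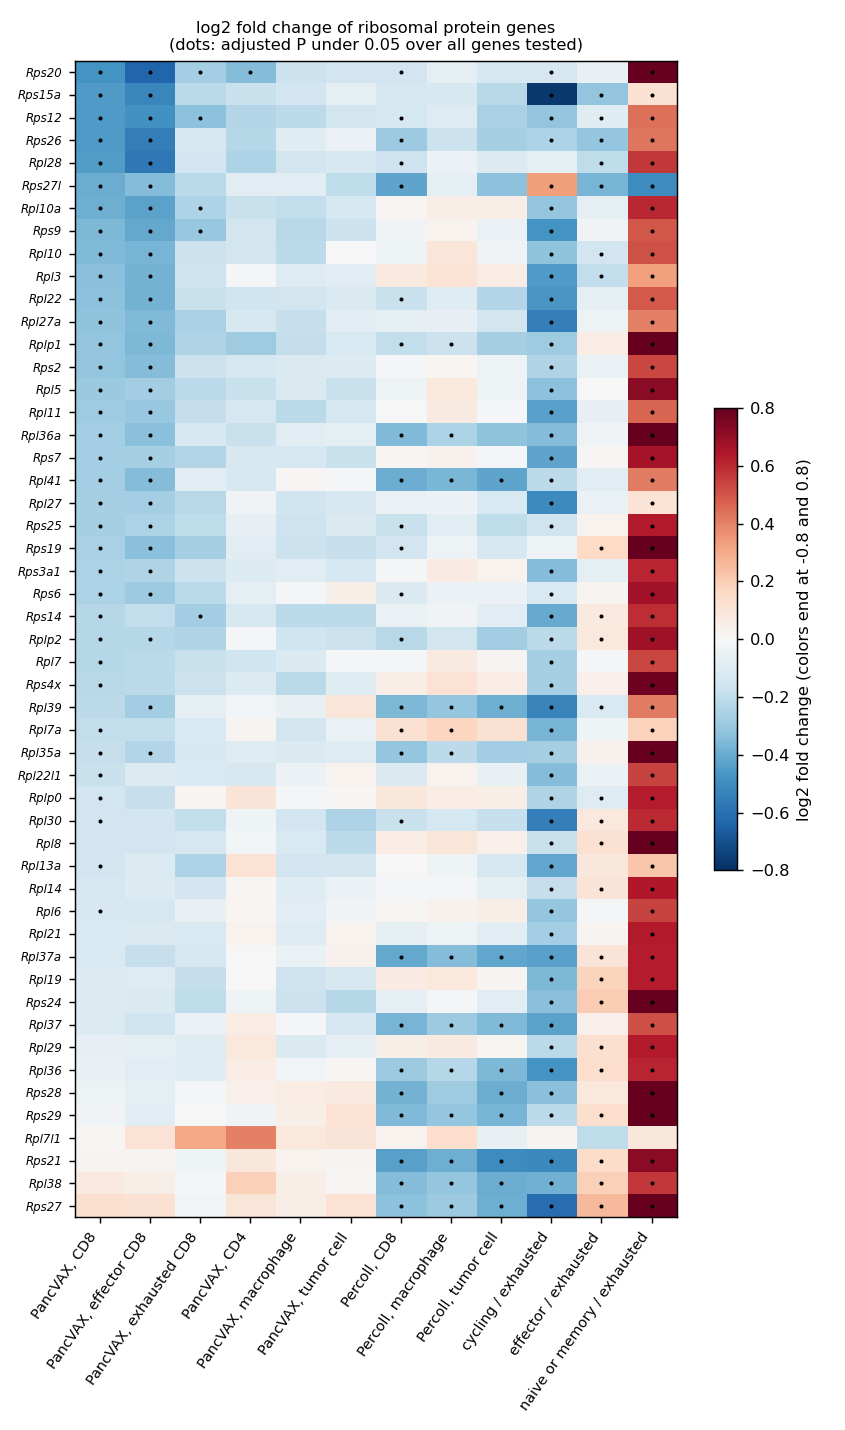
Log2 fold change (color, ending at -0.8 and 0.8) of the 51 ribosomal protein genes that the text names and that were tested in at least 10 of 12 comparisons (rows) in those comparisons (columns), with dots where the edgeR adjusted P over all genes tested was under 0.05. The PancVAX columns are blue for most genes and dotted mainly in CD8 and effector CD8 T cells, the cycling column is blue and dotted for most, the naive or memory column is red for all but Rps27l, and Rps27, Rpl38 and Rps21 near the bottom are dotted in all 3 Percoll columns.

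Members also differed between preparations. In CD8+ T cells the share was lower in Percoll than in whole tumor libraries in 7 of 8 treatments, at -1.73 ± 1.27 points (SD), in macrophages in 7 of 8, at -1.36 ± 1.01, in tumor cells in 7 of 8, at -1.65 ± 1.75, and in exhausted and cycling cells in 8 of 8, at -1.84 ± 0.789 and -2.54 ± 1.04 points. It was also lower in CD4+ T cells in 7 of 8, at -1.80 ± 1.46, in neutrophils in 7 of 8, at -1.42 ± 1.32, in effector cells in 7 of 8, at -1.65 ± 1.44, in naive or memory cells in 6 of 8, at -1.52 ± 1.61, and in B cells in 6 of 8, at -0.658 ± 1.01 points. In the remaining gates it was -0.529 ± 1.98 in NK cells (lower in 5 of 8), -0.233 ± 4.17 in fibroblasts (4 of 7), 0.265 ± 2.72 in endothelial cells (2 of 4) and 1.43 ± 3.11 in dendritic cells (2 of 4). Gene by gene, with the treatment as a block, 33 members were lower and 1 higher of 80 in CD8+ T cells, where 8.77% of 10087 genes were called lower and 10.6% higher. In macrophages 12 were lower and 1 higher of 79, where 6.9% of 10897 genes were called lower and 9.68% higher. In tumor cells 10 were lower and 0 higher of 79, where 1.1% of 8921 genes were called lower. The member medians were -0.08, -0.04 and -0.10.

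Rps21 was the lowest in all 3 gates. In CD8+ T cells it had 2820, 3431 and 4007 CPM in the lowest, median and highest whole tumor library and 2113, 2437 and 3282 in the Percoll libraries (-0.43 ± 0.08 SE, edgeR, adjusted P = 0.00051). In macrophages it had 1660, 1973 and 2421 against 1167, 1345 and 1935, and in tumor cells 1675, 2146 and 2621 against 1163, 1485 and 2092, with log2 fold changes of -0.39 and -0.50. The ranges overlapped in each gate. The fit compares libraries within a treatment. Rps27l (-0.42), Rpl37a (-0.41), Rpl41 (-0.40) and Rps28 (-0.38) were next in CD8+ T cells.

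Of 79 members tested in all 3 gates, 9 (11.4%) were lower in the Percoll libraries of each, compared with 53 of 7827 genes (0.677%), from gates of the same libraries. They were Rpl36, Rpl37, Rpl37a, Rpl38, Rpl39, Rpl41, Rps21, Rps27 and Rps29. Of the 17 members that were not called with PancVAX in CD8+ T cells, 9 were lower in the Percoll libraries, and of the 63 that were called, 24 were. Rpl7a went the other way. It had 1832, 2006 and 2182 CPM in whole tumor and 2041, 2226 and 2364 in Percoll CD8+ libraries (0.12 ± 0.04 SE, edgeR, adjusted P = 0.026) and was higher in Percoll macrophages as well (0.17). The count in tumor cells was 1 without the anti–CTLA-4 libraries and 21 without those of PancVAX + anti–PD-1, whose Percoll library had the most cells in no gate, and it was 20 in macrophages and 34 in CD8+ T cells without the latter.

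Translation factors and other TOP mRNAs did not go with the members between preparations. In CD8+ T cells 6 were higher and 1 lower of 15 (median 0.08). There were 3 higher and 0 lower in macrophages (median 0.11) and 1 higher and 0 lower in tumor cells (median 0.10). Of all genes, 10.6% were called higher and 8.77% lower in CD8+ T cells, and 9.68% higher and 6.9% lower in macrophages. In tumor cells 169 of 8921 genes were called higher and 98 lower, so that 1 called gene of 15 says little there. The PancVAX effect in CD8+ T cells was also compared between preparations with an interaction term. The fit held preparation and each agent as terms but no block for the treatment, so that the libraries of a treatment were not paired. A lack of calls in it does not show equal effects in both preparations. No gene of 9860 was called (0.0%) by edgeR, with 357 genes and 4 of 79 members at an unadjusted P under 0.05. The median of the members was 0.11 against 0.00 over all genes, and 76 of the 79 were above 0. As point estimates these stand for a smaller decrease in Percoll than in whole tumor libraries, as in the shares (-3.13 and -4.57 points). The members come from the same libraries and are no replicates, so that the count of signs is a description.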

How the data were processed

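Single-cell RNA libraries (10x Chromium 5′ kit, NextSeq 500) of 16 tumor samples were aligned and counted by the authors with Cell Ranger 4.0.0 on mm10, per the labels. No source used here names the annotation release. The deposited matrix holds raw UMI counts per gene and barcode, and 8 T cell receptor libraries were not used here. Cells were assigned by the barcode suffix, matched to the library number in the submitters' description, and no column of per-sample values was left unused (0).

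Barcodes with 1000–10000 UMIs, 200–3000 genes, under 10% mitochondrial UMIs and no hemoglobin UMI were kept, following the limits in the study's methods. A cell entered a gate with at least 3 of its 6 markers and a lead of 2 over every other lineage, and a CD8 state with at least 2 markers and a lead of 1. No doublet caller was run. The gates depend on depth, and RNA free in the droplets adds UMIs of other cells.

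Counts were summed by library (at least 10 cells) or by pool (at least 20 cells) and tested with edgeR 4.0.16 (quasi-likelihood, TMM, filterByExpr) in R 4.3.3, with Benjamini-Hochberg adjusted P under 0.05 over all genes tested and no minimum fold. DESeq2 1.42.0 was an alternative. The fits were also run on simulated data, with planted changes larger than most PancVAX effects above, so that this does not bear on effects of that size. Shares of UMIs are values with no test. The named genes were paralog pairs, stalk proteins and genes of known function, plus up to 5 highest and 5 lowest called members per comparison, the 3 members farthest from the median and up to 5 genes of each pathway list. Some genes under this rule are not reported here. The members and lists were chosen with earlier results of these data known. Alternatives changed the scaling, filters, depth limits, gates, covariates and blocks and left out each pool or library in turn. For these alternatives the share of all genes called is not given, so that a rise or fall in their counts of members may be shared by all genes. Reads shared between near-identical gene copies cannot be told apart in these counts.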

Additional observations from a re-analysis of the deposited data

Results flagged for a closer look

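In 2 of 61 groups of 4 pools 1 pool stood apart from the other 3, where chance flags about 1 in 20 groups. Rpl11 in the CD8+ T cell gate was 3632 CPM with PancVAX alone, the lowest of the 4 PancVAX pools, whose others lay at 3960–4022. Rpl39l in the same gate was 6.12 CPM with isotype antibodies, the highest of the 4 pools without PancVAX, whose others lay at 0–0.81, and it rests on few UMIs.

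The effect of PancVAX differed between CD8+ T cells and macrophages for 20 members by the interaction term (edgeR, Benjamini-Hochberg adjusted P under 0.05 over all genes tested), each more negative in CD8+ T cells. Their number was 3 with cells above the upper limits added and 9 in cells of 2000–6000 UMIs. The differences of the log2 fold changes were -0.34 for Rps26, -0.30 for Rps20, -0.29 for Rps15a and -0.29 for Rps27l.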

How the results depend on the processing

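The lower levels of ribosomal protein genes with PancVAX in CD8+ T cells kept their direction under each alternative run, apart from 1 member called higher without the pool of both antibodies. The 63 members called were 41 without the upper limits on UMIs and genes per cell, 49–65 under the other settings, and 52–65 on leaving out 1 pool. In effector cells (51) they were 31–54 on leaving out 1 pool. In exhausted cells (10) they were 4 with library totals, 35 without the filter, 0 without the upper limits and 0–40 on leaving out 1 pool. In naive or memory cells (1) they were 3 with DESeq2, 0 with library totals, with factors from other genes, without the upper limits, in cells of 2000–6000 UMIs and with looser gates, and 0–2 on leaving out 1 pool. In CD4+ T cells (1) they were 0 with DESeq2, without the upper limits and in cells of 2000–6000 UMIs, and 0–2. In macrophages (0) they were 16 without the filter, 5 in cells of 2000–6000 UMIs and 0–11, and in neutrophils (0) 41 without the upper limits and 0–0. In tumor cells and for both antibodies leaving out a pool gave 0–0. PancVAX against isotype control (22) gave 5 without the upper limits, 8 without the preparation term and 4–12 without 1 library, where the lone library of a side is assumed to vary like the other treatments. PancVAX with both antibodies against PancVAX (0) gave 2 without the filter and 0–5 in CD8+ T cells, and 3 and 0–3 in exhausted cells. The interaction with macrophages (20) gave 3 without the upper limits and 9 in cells of 2000–6000 UMIs. Percoll against whole tumor gave, in CD8+ T cells (34), 22 with DESeq2, 7 without the treatment block and 25–36 without 1 treatment. In macrophages (13) it gave 29 with library totals, 5 in cells of 2000–6000 UMIs, 8 with looser gates, 4 without the block and 6–20. In tumor cells (10) it gave 20 without the filter, 59 without the upper limits, 1 in cells of 2000–6000 UMIs, 32 with looser gates, 0 without the block and 1–21. The share of all genes called is not given for the alternative fits of this section, so that their counts of members have no base to be set against. The cause of these changes was not tested.

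The balance of higher and lower calls turned in 3 comparisons. Tumor cells against macrophages had 67 calls also with library totals and without the upper limits. B cells against CD8+ T cells (39) had 53 with DESeq2, 54 with library totals, 40 in cells of 2000–6000 UMIs and 30 without the library block. Effector against exhausted cells (30) had 39 with library totals and 7 without the block. With library totals the median of all genes moved to 0.42 (tumor cells against macrophages), -0.24 (naive or memory against exhausted), 0.17 (CD8+ T cells against macrophages) and -0.19 (neutrophils against macrophages). Of 2128 values of 205 called pairs of a named gene and a comparison, 1818 kept call and direction, 295 lost the call and 15 changed sign.

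Between tumor cells and macrophages the log2 fold change changed sign with library totals for Rps20 (0.37), Rpl5 (0.33), Rps27l (0.032), Rpl22 (0.24) and Rpl7l1 (0.17), without the upper limits for Rps20 (0.046), Rpl5 (0.19) and Rpl7l1 (0.12), and with looser gates for Rps20 (0.039). Between neutrophils and macrophages Rps27 became -0.13 in cells of 2000–6000 UMIs and Rps6 0.15 without the upper limits. Against exhausted cells, Rpl27 in naive or memory cells became -0.10 with library totals and -0.055 without the filter, Rplp0 in effector cells 0.021 in cells of 2000–6000 UMIs, and Rps6 in cycling cells 0.32 without the upper limits.

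The difference of the share with PancVAX was, in CD8+ T cells, -2.25 points without the upper limits, -4.21 in cells of 2000–6000 UMIs and -4.14 as the median over cells. It was -3.58 in neutrophils without the upper limits and -1.02 in neutrophils of 2000–6000 UMIs. With looser gates it was -2.60 in tumor cells and -2.41 in fibroblasts, and as the median over cells -4.04 in naive or memory cells. It shrank to -0.302 in CD4+ T cells, -0.157 in neutrophils, -0.640 in fibroblasts and -0.304 in endothelial cells as the median over cells, to -1.22 in NK cells without the upper limits and to -0.266 in neutrophils and -0.887 in endothelial cells with looser gates. In cycling cells it was -1.81, -3.03 and -4.64 under the first 3 settings. On leaving out 1 pool, an alternative chosen after seeing the data, it ranged over -3.91 to -3.49 in CD8+, -1.84 to -0.989 in CD4+, -3.29 to -1.74 in NK, -1.71 to -0.667 in B cells, -1.05 to -0.672 in macrophages, -0.685 to -0.116 in neutrophils, -1.73 to -0.685 in tumor cells, -1.87 to -0.709 in fibroblasts, -2.06 to -0.846 in endothelial cells, -3.23 to -1.96 in naive or memory, -4.77 to -3.86 in effector, -2.64 to -1.99 in exhausted and -4.19 to -3.62 in cycling cells. The labels give no replicate numbers to pair pools by. The fits with the library or the treatment as a block are the main ones, and their counts without the block stand above where they moved by over 1.5 times or turned. Gates of few cells limit what could be called.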
